A study of Rattus norvegicus with 12 samples.

Results

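Acid-base and chloride transport in the small intestine was followed through 10 genes: the sodium-proton exchangers Slc9a3 and Slc9a2, the anion exchangers Slc26a3 and Slc26a6, the sodium-bicarbonate cotransporter Slc4a4, the chloride channel Cftr, the carbonic anhydrase family members Car2, Car4 and Car8, and the peptide hormone Guca2a. They were chosen by name, as every probe set (the group of short probes that measures a transcript) whose annotation gives exactly 1 of these symbols. This gave 13 probe sets for 10 of the 14217 genes with such a probe set. Of these, 12 had a mean scaled signal of at least 100 and were tested, and they covered all 10 genes. The second probe set of Car4 (1391132_at) averaged 68.2 and was not tested. Its signals lay between 7.1 and 149 on the 12 arrays.

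The animals were Belgrade rats, which carry a recessive mutation (b) of Slc11a2, the proton-coupled divalent metal transporter of the duodenal brush border. Homozygotes (b/b), which are known to be anaemic, were compared with heterozygotes (+/b), so every rat carried at least 1 mutant allele and the arrays analysed here hold no wild-type rat. RNA of scraped mucosa was hybridised to 1-colour Affymetrix arrays. The 4 groups were b/b jejunum, +/b jejunum, b/b duodenum and +/b duodenum, with 3 arrays each, and each of the 6 groups of rats gave 1 array per segment. Age, sex, diet and the number of rats in a group are not given in the labels. A scrape holds several cell types, so fewer cells of a type and less RNA per cell cannot be told apart in any value below.

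The 6 of 8 enterocyte markers that matched a probe set were bright, with mean log2 signals between 14.3 and 16.1 on every array. Several arrays stood apart. Replicates 2 and 3 of +/b duodenum had been deposited on a lower scale and were multiplied by 9.69 and 3.95 to reach the common trimmed mean of 500. Exocrine pancreas markers (12 of 13 matched) reached a mean log2 signal of 9.08 on the array of b/b duodenum replicate 3 and 13.5 on that of +/b duodenum replicate 2, and lay between 5.68 and 6.63 on the other 10 arrays. The array of b/b duodenum replicate 1 had the lowest median Spearman correlation with the other arrays, 0.836. The brightest probe set reached 85087 to 145043 on the 4 arrays numbered 1, 48031 to 86074 on those numbered 2 and 30742 to 51250 on those numbered 3.

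Absorptive cells take in sodium and release protons through apical sodium-proton exchangers, while apical anion exchangers trade chloride for bicarbonate, so that salt is absorbed and the surface pH is set. The protons also drive proton-coupled uptake, that of metal ions by Slc11a2 included. In the duodenum, bicarbonate loaded by basolateral cotransport and formed by carbonic anhydrase leaves through anion exchangers and Cftr and neutralises gastric acid. Guanylin, the product of Guca2a, binds the receptor guanylate cyclase Gucy2c, and the cyclic GMP that follows opens Cftr and inhibits Slc9a3.

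The segments were compared first, since these genes differed most there. In the jejunum, Car2 and Slc4a4, which supply bicarbonate inside the cell, were lower than in the duodenum, and Car4, which acts on the outer membrane surface, was higher. Averaged over both genotypes, 4 of the 12 probe sets passed the threshold, where 1.4% of all 17694 tested probe sets did (limma, Benjamini-Hochberg adjusted over all of them, threshold 0.05). These were both Car2 probe sets, Car4 and the dimmer of the 2 Slc4a4 probe sets. The median change over the 10 genes was -0.28 on the log2 scale, against 0.07 over all tested probe sets. In the fit that pairs the segments within each group of rats as a fixed block, 7 of the 12 passed, against 4.49% of all probe sets in that fit, the additional ones being the brighter Slc4a4 probe set, Cftr and Slc26a6, all lower in the jejunum. With the group of rats as a random block 6 of the 12 passed, Slc26a6 not among them, against 4.02% of all probe sets.

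**Figure D1:**
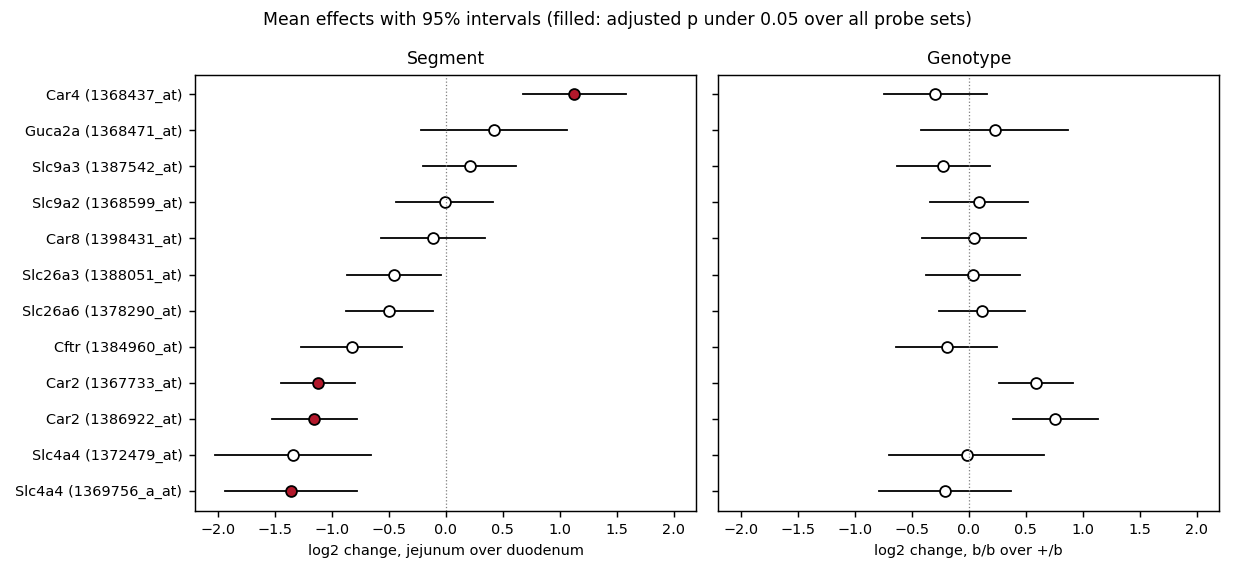
Log2 change with its 95% interval for each of the 12 tested probe sets, averaged over genotypes for the segments (left, jejunum over duodenum) and over segments for the genotypes (right, b/b over +/b). Filled points had an adjusted p under 0.05: the 2 Car2 probe sets, Car4 and 1 Slc4a4 probe set in the segment panel, and no probe set in the genotype panel.

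Car2 encodes the abundant cytosolic carbonic anhydrase, which interconverts carbon dioxide and bicarbonate and also supplies protons to the exchangers. On its brighter probe set (1367733_at), the signals were 3921, 3369 and 3274 in b/b jejunum and 2920, 3102 and 2029 in +/b jejunum. In the duodenum they were 6896, 10422 and 9032 in b/b rats and 5526, 4389 and 5388 in +/b rats. Every jejunal array lay below every duodenal array. The mean change, jejunum over duodenum, was -1.12 ± 0.15 (SE, log2), a 2.17-fold lower level (adjusted p = 0.00138).

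The second Car2 probe set (1386922_at) read 2824, 2343 and 2824 in b/b jejunum, 2063, 2132 and 1263 in +/b jejunum, 5279, 7284 and 7930 in b/b duodenum and 4061, 3981 and 2638 in +/b duodenum. Its mean change was -1.16 ± 0.17 (adjusted p = 0.00353). Across the 12 arrays the 2 probe sets had a Pearson correlation of 0.95, and of 0.62 once group means were removed. Both calls were kept without any single array, without both arrays of lower deposited scale (adjusted p = 0.0133 and 0.0138) and without both arrays with pancreas markers (adjusted p = 0.00676 and 0.0237).

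Within b/b rats, 2 of the 12 probe sets passed, both of Car2, against 0.763% of all probe sets. Their changes were -1.30 ± 0.21 (adjusted p = 0.01) and -1.34 ± 0.25 (adjusted p = 0.0216). Once rat group was a fixed block 7 passed, against 2.44% of all probe sets, adding Car4, both Slc4a4 probe sets (adjusted p = 0.0121 and 0.0453), Cftr (adjusted p = 0.0287) and Slc26a6 (adjusted p = 0.0443). As a random block 4 passed, against 1.98% of all probe sets, namely both Car2 probe sets, Car4 and Slc4a4 1369756_a_at, while Slc4a4 1372479_at, Cftr and Slc26a6 did not (adjusted p = 0.0662, 0.0508 and 0.169). Without the block, both Car2 calls were lost without b/b duodenum replicate 2 (adjusted p = 0.0797 and 0.125), b/b duodenum replicate 3 (adjusted p = 0.0502 and 0.101) or b/b jejunum replicate 2 (adjusted p = 0.08 and 0.137), and that of 1386922_at also without b/b jejunum replicate 1 or 3 (adjusted p = 0.0579 and 0.0617) or both pancreas-marked arrays (adjusted p = 0.0997). Within +/b rats, 0 of 12 passed, against 0.0565% of all probe sets, although 6 had an unadjusted p under 0.05 (5.36% of all probe sets). The Car2 changes there were -0.94 ± 0.21 (adjusted p = 0.236) and -0.97 ± 0.25 (adjusted p = 0.362), and the second passed once rat group was a fixed block (adjusted p = 0.0204), as did Slc4a4 1372479_at (-1.35, adjusted p = 0.0312), where 0.486% of all probe sets passed. As a random block it left 0 of 12, against 0.311% of all probe sets.

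Slc4a4 encodes the electrogenic sodium-bicarbonate cotransporter, which brings bicarbonate into the cell across the basolateral membrane. Its dimmer probe set (1369756_a_at) read 548, 393 and 836 in b/b jejunum and 583, 841 and 591 in +/b jejunum, against 848, 1738 and 2236 in b/b duodenum and 1420, 1237 and 2817 in +/b duodenum. All 6 jejunal arrays lay below all 6 duodenal arrays, though the highest jejunal and lowest duodenal values nearly met. Of the 12 probe sets, this one and the brighter of Car2 were so separated, as were 0.853% of all probe sets. The mean change was -1.36 ± 0.27 (2.56-fold lower, adjusted p = 0.0202).

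This Slc4a4 call was lost without +/b jejunum replicate 1 or 3 (adjusted p = 0.064 and 0.0544), b/b duodenum replicate 2 or 3 (adjusted p = 0.0713 and 0.0514) or b/b jejunum replicate 2 (adjusted p = 0.0706), without both arrays of lower deposited scale (adjusted p = 0.097) and with no intensity trend in the fit (adjusted p = 0.0608). The brighter Slc4a4 probe set (1372479_at) read 1322, 2228 and 2486 in b/b jejunum, 1717, 1930 and 2252 in +/b jejunum, 2316, 6117 and 8339 in b/b duodenum and 3272, 3934 and 9732 in +/b duodenum. The jejunal values were tight and the duodenal ones spread widely, and in b/b rats the segments overlapped by b/b duodenum replicate 1. In every group the values of this probe set rose with the replicate number, and the reason was not tested. Its change was -1.34 ± 0.32 (adjusted p = 0.0565), and the same difference passed with the rat group as a fixed block (SE 0.16, adjusted p = 0.000922). Leaving out each array in turn gave -1.61 to -1.10 (adjusted p = 0.00689 to 0.154), and it passed in 2 of these 12 fits.

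Cftr encodes the apical chloride and bicarbonate channel opened by cyclic AMP and cyclic GMP signals. It read 1764, 1237 and 1381 in b/b jejunum and 1873, 1896 and 1709 in +/b jejunum, against 4591, 2688 and 1848 in b/b duodenum and 4101, 2669 and 2333 in +/b duodenum. Within each genotype every jejunal array lay below every duodenal array, and all 6 groups of rats had less in the jejunum, by 0.42 to 1.37 on the log2 scale. The mean change of -0.83 ± 0.21 had an adjusted p of 0.0736, and of 0.00712 with the rat group as a fixed block. It passed in 6 of the 14 alternatives other than those without 1 array. Among the 6 were the 3 block fits and the one without both pancreas-marked arrays (-1.02, adjusted p = 0.0341). Leaving out each array in turn gave -0.98 to -0.65 (adjusted p = 0.0225 to 0.212), and it passed in 1 of these 12 fits.

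Slc26a6 encodes an apical exchanger of chloride for bicarbonate and oxalate. It read 14358, 9527 and 7665 in b/b jejunum, 10430, 10279 and 8554 in +/b jejunum, 17641, 15615 and 11887 in b/b duodenum and 14361, 14736 and 10915 in +/b duodenum. The segments were apart in +/b rats and overlapped in b/b rats, where jejunum replicate 1 exceeded duodenum replicate 3. The mean change was small, -0.50 ± 0.18 (adjusted p = 0.245), yet all 6 groups of rats showed it (0.30 to 0.71 lower in the jejunum), and it passed with the rat group as a fixed block (SE 0.09, adjusted p = 0.00853) but not as a random block (adjusted p = 0.0564). It passed in 2 of 14 alternatives and in 0 of the 12 fits without 1 array.

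Car4 encodes a carbonic anhydrase anchored to the outer face of the plasma membrane. Its tested probe set (1368437_at) read 3212, 1835 and 2486 in b/b jejunum and 2813, 2169 and 2933 in +/b jejunum, against 1380, 915 and 714 in b/b duodenum and 1836, 913 and 1511 in +/b duodenum. Within each genotype the jejunal arrays lay above the duodenal arrays, and all 6 groups of rats had more in the jejunum. The mean change was 1.13 ± 0.21, a 2.19-fold higher level (adjusted p = 0.0138).

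The Car4 call was kept without any single array (adjusted p at most 0.0486) and without both pancreas-marked arrays (0.88, adjusted p = 0.0493). It was lost without both arrays of lower deposited scale (0.92, adjusted p = 0.103), which left a lone +/b duodenum array whose spread was taken from the other groups. Within b/b rats the change was 1.33 ± 0.30 (adjusted p = 0.065), which passed with the rat group as a fixed block (adjusted p = 0.0031). Car4 and Car2 thus moved in opposite directions along the gut.

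**Figure D2:**
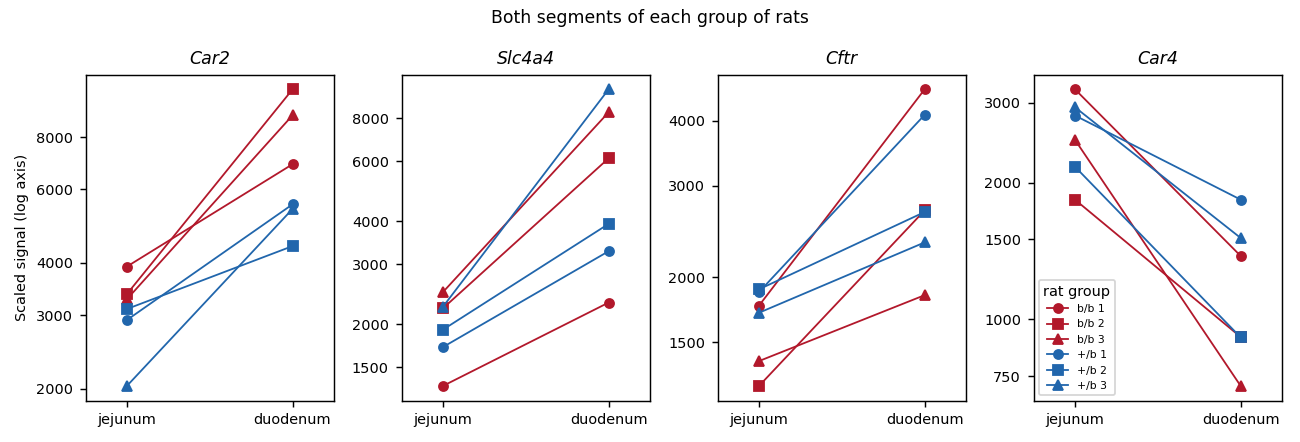
Scaled signal (log axis) of the leading probe sets of Car2, Slc4a4, Cftr and Car4 in the jejunum and the duodenum, with a line for each of the 6 groups of rats (red b/b, blue +/b; marker shapes are replicate numbers). All 6 lines slope up toward the duodenum for Car2, Slc4a4 and Cftr, and down for Car4.

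Slc4a4 and Car4 passed by segment and Cftr did so in the block fits, and the 250 bases before their annotated starts are shown, from the RefSeq promoter table of build GRCr8, which held 7 of the 10 genes (Car2, Car8 and Slc26a6 had no entry). All 3 windows lie within the span of their gene, which has longer annotated transcripts. The sequences are in the direction of transcription, and capitals mark the motif matches described after them. The Cftr window is chr4:47527379-47527628 on the plus strand, that of Slc4a4 is chr14:19468283-19468532 on the minus strand, and that of Car4 is chr10:70325108-70325357 on the plus strand.
Cftr: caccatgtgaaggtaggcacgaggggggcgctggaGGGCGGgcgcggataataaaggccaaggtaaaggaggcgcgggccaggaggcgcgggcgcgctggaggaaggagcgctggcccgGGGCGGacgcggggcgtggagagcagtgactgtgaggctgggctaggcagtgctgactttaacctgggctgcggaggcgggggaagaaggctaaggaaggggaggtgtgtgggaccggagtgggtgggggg
Slc4a4: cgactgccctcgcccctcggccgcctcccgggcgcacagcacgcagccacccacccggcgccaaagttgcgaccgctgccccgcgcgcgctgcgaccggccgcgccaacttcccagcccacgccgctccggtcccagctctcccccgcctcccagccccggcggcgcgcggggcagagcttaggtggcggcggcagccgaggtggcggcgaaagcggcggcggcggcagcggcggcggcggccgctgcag
Car4: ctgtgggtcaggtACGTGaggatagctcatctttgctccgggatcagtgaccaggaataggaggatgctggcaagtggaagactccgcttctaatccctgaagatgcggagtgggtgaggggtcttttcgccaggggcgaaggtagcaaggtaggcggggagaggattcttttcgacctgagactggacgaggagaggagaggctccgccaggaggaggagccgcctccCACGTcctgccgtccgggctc

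The windows were searched on both strands for 7 short motifs, and none of the matches overlapped another. For the GATA factors the letters were AGATAA, found in 10.3% of all 33469 promoter windows of this length. The CDX2 motif was TTTATNG (10.1% of windows), and those of HNF1 and HNF4A were GTTAAT (6.5%) and CAAAGTCC (1.1%). The core of the hypoxia response element was ACGTG (16.6%), the SP1 motif GGGCGG (30.5%) and the core of the cyclic AMP response element TGACG (18.2%). Cftr held GGGCGG at 215 and 131 bases before the start. Car4 held ACGTG at 237 bases before the start, and on the opposite strand at 21 bases before it. Slc4a4 held none of the motifs, in a window with 80.8% G and C, against a median of 51.2% over all windows. Cftr had 69.2% and Car4 60.4%. A match of these short letters is a description and not a binding site.

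The remaining exchangers did not pass by segment. Slc9a3 encodes the main apical sodium-proton exchanger of absorptive cells. It read 5643, 4122 and 3898 in b/b jejunum, 4506, 4784 and 4489 in +/b jejunum, 5016, 3625 and 2134 in b/b duodenum and 3792, 5435 and 4514 in +/b duodenum. The groups overlapped, with +/b jejunum the tightest, and the segment change was 0.21 ± 0.19, with a 95% interval of -0.20 to 0.62 (adjusted p = 0.7).

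Slc9a2, a second apical sodium-proton exchanger, read 5164, 3686 and 3346 in b/b jejunum, 3649, 3822 and 3454 in +/b jejunum, 4249, 4211 and 3326 in b/b duodenum and 4928, 5014 and 2176 in +/b duodenum. Its segment change was -0.01, with an interval of -0.44 to 0.42, and the lowest value belonged to +/b duodenum replicate 3, one of the arrays multiplied to the common scale. Slc26a3, the apical chloride-bicarbonate exchanger whose loss causes congenital chloride diarrhoea in humans, read 5786, 2617 and 3921 in b/b jejunum, 4942, 3770 and 3047 in +/b jejunum, 4263, 6090 and 6087 in b/b duodenum and 5813, 5113 and 4746 in +/b duodenum. It was lower in the jejunum in 5 of 6 groups of rats, the exception being b/b group 1 (mean change -0.45 ± 0.19, adjusted p = 0.353).

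Guca2a encodes guanylin, the hormone of the gut lumen. It read 34822, 25697 and 16198 in b/b jejunum, 31582, 22014 and 11349 in +/b jejunum, 27176, 17007 and 11367 in b/b duodenum and 15352, 22646 and 10740 in +/b duodenum. The array numbered 3 was the lowest in each of the 4 groups, as the brightest signals of those arrays were. It was also the lowest in each of the 4 groups for Slc26a6 and Slc9a2, and the highest for Slc4a4 1372479_at and Car8. Whether these patterns are related was not tested. The segment change of Guca2a was 0.42 ± 0.30 (adjusted p = 0.611), higher in the jejunum in 5 of 6 groups of rats. Car8 encodes a carbonic anhydrase-related protein without enzyme activity that binds the inositol trisphosphate receptor. Its signals were the lowest of the tested member probe sets, with a mean of 324, which exceeded that of 67.9% of all probe sets. They lay between 277 and 318 in b/b jejunum, 259 and 397 in +/b jejunum, 316 and 410 in b/b duodenum and 195 and 498 in +/b duodenum, and its segment change was -0.11 ± 0.21 (adjusted p = 0.883).

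**Figure D3:**
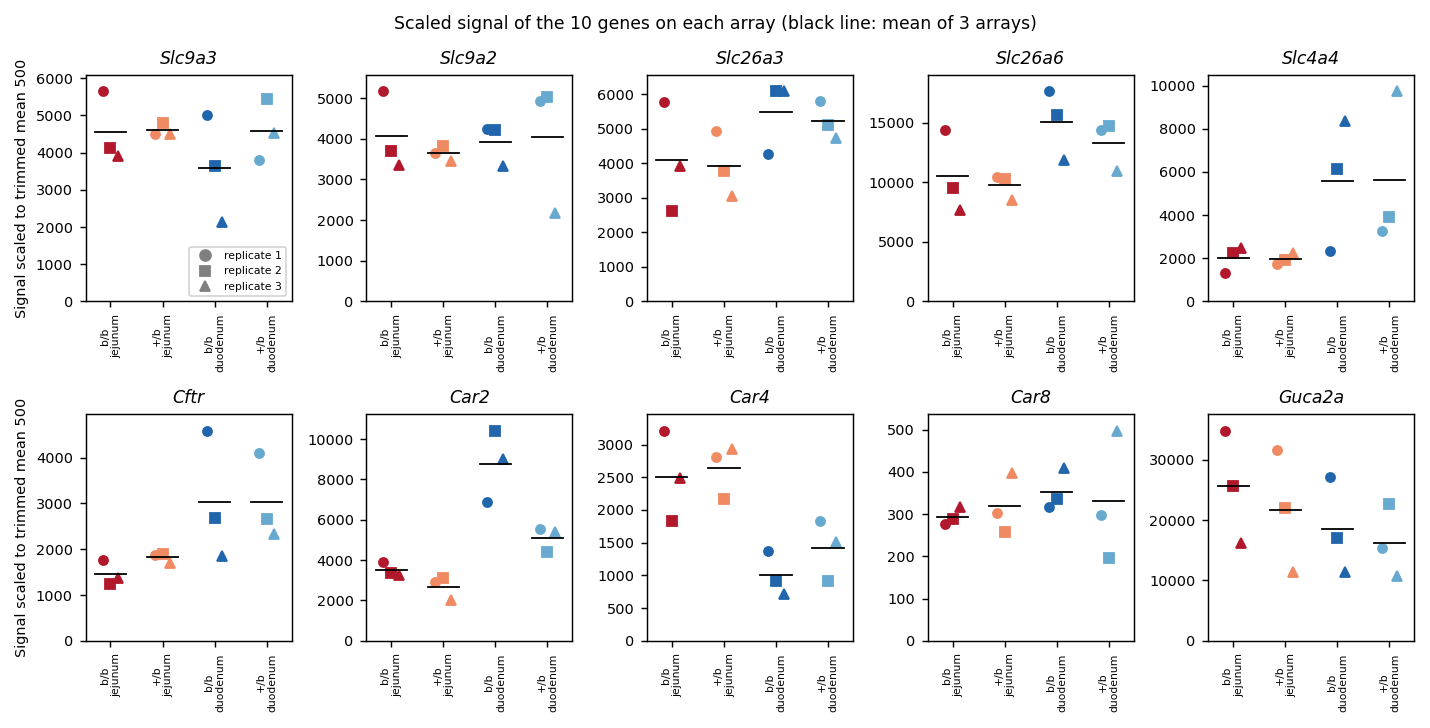
Scaled signal of the leading probe set of each of the 10 genes on every array, by group, with replicate numbers as marker shapes and the group mean as a black line. Car2 is highest on the 3 b/b duodenum arrays (6896 to 10422), Car4 is higher in the jejunum than in the duodenum of each genotype, and Guca2a is lowest on the array numbered 3 in each group.

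Markers of other cells differed between the segments as well. Of those tested by segment, 3 passed, where 1.4% of all probe sets did. All 3 were higher in the jejunum: Pla2g2a (3.29 ± 0.45, adjusted p = 0.0016) and Lyz2 (1.47 ± 0.29, adjusted p = 0.0218) of the Paneth cell list, and the enteroendocrine hormone gene Gcg (2.48 ± 0.40, adjusted p = 0.0056). The other tested members of these lists did not pass, and some went the other way. Reg3g of the Paneth list changed by -0.20, and of the enteroendocrine list Cck changed by -0.82, Chga by 0.09 and Gip by 0.30. The mean log2 signal of the Paneth list lay between 9.89 and 10.9 in b/b jejunum, against 8.72 to 9.83 in b/b duodenum, and between 10.50 and 10.99 in +/b jejunum, against 9.73 to 10.1 in +/b duodenum. No crypt and cycling marker passed. The mean log2 signal of crypt and cycling markers (6 of 7 matched) lay between 8.44 and 8.91 in b/b jejunum, against 7.35 to 7.86 in b/b duodenum, and between 8.93 and 9.49 in +/b jejunum, against 8.01 to 8.91 in +/b duodenum. Tff2, the 1 Brunner gland marker of 2 that matched, read 67.5 to 108 in b/b jejunum and 4.02 to 130 in +/b jejunum, against 117, 261 and 1234 in b/b duodenum and 76.1, 723 and 17.7 in +/b duodenum. Its 2 highest values fell on the arrays with pancreas markers, and it did not pass by segment (-1.49, adjusted p = 0.434). The part of these cells in the segment changes was not tested beyond leaving out those 2 arrays.

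Genotype was compared within each segment and as the mean of both. In the duodenum 0 of 12 probe sets passed, against 0.0396% of all probe sets, in the jejunum 0 of 12, against 0.0339%, and for the mean 0 of 12, against 0.0565% (limma). At an unadjusted p under 0.05 there were 2, 1 and 2, all of Car2, against 6.17%, 1.34% and 5.48% of all probe sets. On the 2 Car2 probe sets the b/b arrays lay above the +/b arrays in both segments without overlap, which was so for 0.226% of all probe sets.

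The b/b arrays of 1367733_at averaged 3521 ± 349 (SD, n = 3) in the jejunum, against 2684 ± 574 in +/b rats, and 8783 ± 1776 in the duodenum, against 5101 ± 620 in +/b rats. The log2 change, b/b over +/b, was 0.41 ± 0.21 (SE) in the jejunum (adjusted p = 1) and 0.77 ± 0.21, or 1.70-fold, in the duodenum (adjusted p = 0.66). On 1386922_at it was 0.58 ± 0.25 in the jejunum (adjusted p = 1) and 0.94 ± 0.25, or 1.92-fold, in the duodenum (adjusted p = 0.657). Averaged over segments the changes were 0.59 ± 0.15 (adjusted p = 0.753) and 0.76 ± 0.17 (adjusted p = 0.444), and neither passed.

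Car2 is also an enzyme of red blood cells, and markers of blood were higher in b/b scrapes. The blood and reticulocyte list (5 of 8 matched) had a mean log2 signal of 7.66 to 8.40 in b/b jejunum, against 6.50 to 6.97 in +/b jejunum, and 8.29 to 8.65 in b/b duodenum, against 6.43 to 7.20 in +/b duodenum. The globin gene Hbb read 9562 to 13456 in b/b jejunum, against 1708 to 2757 in +/b jejunum, and 11844 to 16621 in b/b duodenum, against 1792 to 3274 in +/b duodenum. By genotype (limma), Hbb passed in the jejunum (2.37 ± 0.26, adjusted p = 0.00236) and in the duodenum (2.43 ± 0.26, adjusted p = 0.00121). Alas2 of the same list passed in the jejunum (2.63 ± 0.41, adjusted p = 0.047) but not in the duodenum (2.35 ± 0.41, adjusted p = 0.105). Between jejunum and duodenum Hbb changed by -0.30 ± 0.18 (adjusted p = 0.54), where Car2 changed by -1.12. Slc4a1, the red cell anion exchanger of this list, was dim, with a mean of 129. It did not pass by genotype, at -0.61 ± 0.66 in the jejunum (adjusted p = 1) and 1.21 ± 0.66 in the duodenum (adjusted p = 0.805). The crypt and cycling means given above were lower in b/b than in +/b rats in both segments, without overlap, and none of those genes passed by genotype. The part of blood or of crypt cells in the Car2 differences between genotypes or between segments was not tested.

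Slc9a3, a known source of the protons for metal uptake, averaged 4554 ± 950 in b/b jejunum, against 4593 ± 166 in +/b jejunum, and 3592 ± 1441 in b/b duodenum, against 4580 ± 824 in +/b duodenum. Its change was -0.03 in the jejunum, with a 95% interval of -0.61 to 0.55, and -0.42 in the duodenum, with an interval of -0.995 to 0.158 (adjusted p = 0.833). The duodenal value rests on single arrays: it was -0.70 without b/b duodenum replicate 1, -0.087 without b/b duodenum replicate 3 and 0.043 without both pancreas-marked arrays, and none of these passed. Car4 averaged 2511 ± 689 in b/b jejunum, against 2638 ± 411 in +/b jejunum, and 1003 ± 342 in b/b duodenum, against 1420 ± 468 in +/b duodenum (change -0.49 ± 0.30 in the duodenum, adjusted p = 0.819). Cftr in the jejunum had -0.33 ± 0.29 (adjusted p = 1). Averaged over segments, all probe sets of the 7 genes other than Car2, Car4 and Slc9a3 lay between -0.21 and 0.23.

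How far genotype acted differently in the segments was tested as the genotype change in the jejunum minus that in the duodenum, which passed for 0 of 12 probe sets and 0 of all 17694, while 306 of all (1.73%) had an unadjusted p under 0.05, none of them among the 12. The values of largest size were 0.40 ± 0.42 for Car4, 0.39 ± 0.38 for Slc9a3 and -0.36 for each Car2 probe set (SE 0.30 and 0.35). The intervals were wide, for Slc9a3 from -0.43 to 1.20 and for Car2 1367733_at from -1.01 to 0.29.

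A wider list of 107 symbols of the same transport processes was set beside the 10 genes. Of these, 77 matched a probe set and 54 were tested. By genotype 0 of the 54 passed in the duodenum, in the jejunum or in their mean, against 0.0396%, 0.0339% and 0.0565% of all probe sets. In the mean segment comparison 1 was higher and 4 were lower in the jejunum, where 0.61% of all probe sets were called higher and 0.786% lower. The median segment change of the 54 was -0.05.

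Among the carbonic anhydrases, Car9, a membrane-bound enzyme induced by hypoxia, averaged 775 ± 53.1 in b/b jejunum and 669 ± 88.5 in +/b jejunum, against 3303 ± 1164 in b/b duodenum and 1838 ± 184 in +/b duodenum. Its segment change was -1.72 ± 0.17 (adjusted p = 0.00015). Among the bicarbonate transporters, Slc4a7, an electroneutral sodium-bicarbonate cotransporter, averaged 2011 ± 1269 in b/b jejunum and 1905 ± 714 in +/b jejunum, against 14723 ± 6285 in b/b duodenum and 12425 ± 4865 in +/b duodenum, a change of -2.82 ± 0.34 (adjusted p = 0.000649). The segment change of this gene was larger than that of either Slc4a4 probe set.

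Slc11a2 itself averaged 1828 ± 1657 in b/b jejunum and 728 ± 379 in +/b jejunum, against 25868 ± 3681 in b/b duodenum and 4325 ± 1569 in +/b duodenum (segment change -3.43 ± 0.39, adjusted p = 0.000376). Among the chloride pathways, Slc12a2, the basolateral cotransporter that loads chloride for secretion, was higher in the jejunum (0.94 ± 0.20, adjusted p = 0.0278), where Cftr had -0.83, and Clcn2, a chloride channel, was lower (-0.54 ± 0.12, adjusted p = 0.0431). By genotype in the duodenum the smallest p of the list was that of Slc11a2, at 2.63 ± 0.55 (adjusted p = 0.312), and the second that of Slc12a2, at -1.04 ± 0.28 (adjusted p = 0.66). In the jejunum the smallest p of the list belonged to Slc12a2 (-0.53 ± 0.28), Slc11a2 (0.98 ± 0.55) and the intracellular exchanger Slc9a8 (0.47 ± 0.27), and for the difference between the segments to Slc11a2 (-1.65 ± 0.78), the prostaglandin receptor Ptger4 (1.01 ± 0.51) and the red cell anion exchanger Slc4a1 (-1.82 ± 0.93), none of which passed. By segment, none of the 8 tested sodium-proton exchangers and regulators passed, where 1.4% of all probe sets did. None of the 10 tested genes of guanylin and cyclic nucleotide signalling passed either, Gucy2c (-0.26 ± 0.26) and the second guanylin-like hormone Guca2b (-0.12 ± 0.35) included. For groups of this size, no calls lies near that share.

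**Figure D4:**
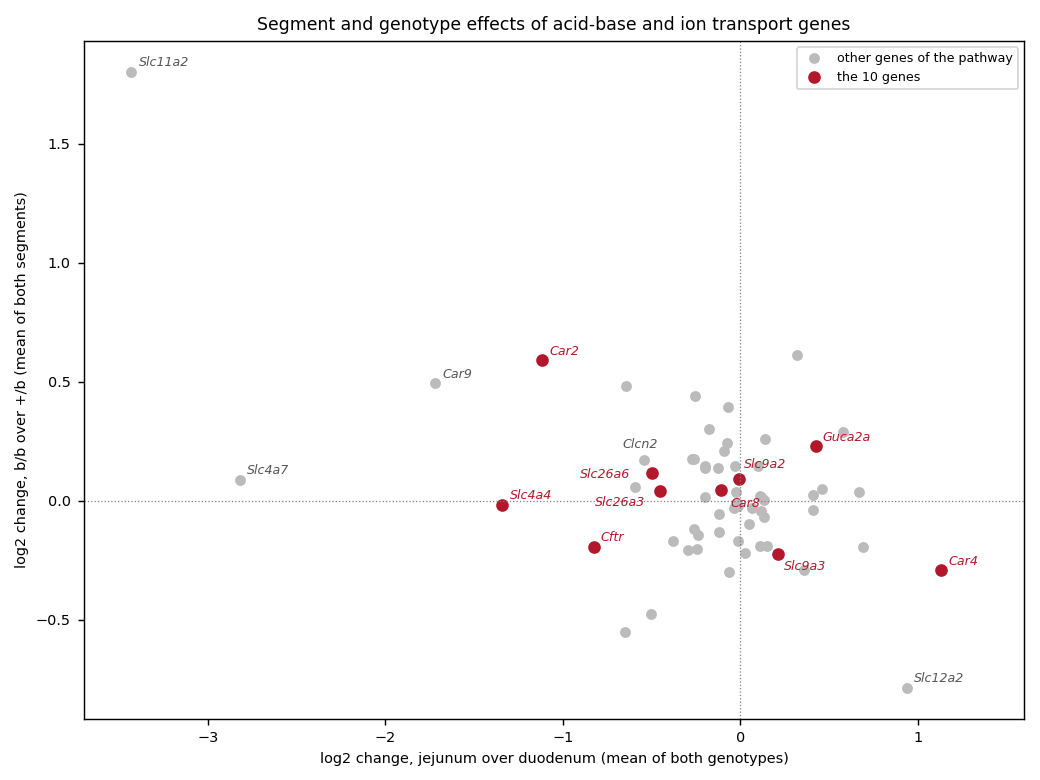
Segment change (horizontal, jejunum over duodenum) against genotype change (vertical, b/b over +/b), in log2, for the 10 genes (red, leading probe set) and 54 other genes of the pathway (grey). Most lie near the centre, with Slc11a2, Slc4a7, Car9, Slc4a4 and Car2 to the left and Car4 and Slc12a2 to the right.

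Within the set, Cftr and Slc26a6 had a Pearson correlation of 0.80 over the 12 arrays, and of 0.69 once group means were removed. Slc4a4 (1372479_at) and Guca2a ran opposite to each other, at -0.73 and -0.76, and so did Slc9a2 and Car8, at -0.79 and -0.83. Although lower in the jejunum alike, Cftr and Slc4a4 (1372479_at) had 0.22 over the arrays and -0.90 within groups. Slc26a6 and this probe set had 0.16 and -0.81. With the dimmer Slc4a4 probe set (1369756_a_at), the values within groups were -0.61 for Cftr and -0.60 for Slc26a6. Car2 and Car4 had -0.81 over the arrays and -0.06 within groups. These 12 arrays share groups, scaling and brightness, so the correlations are descriptions.

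Over the 12 arrays, the genes whose log2 signals were most like those of Car2 were Car9 (Pearson r 0.96), Ldhd (0.96) and Pparg (0.96). For Cftr they were Pigr, Hsd17b2 and Ptgr1 (0.93 to 0.94), for Slc26a6 Slfn2, Akr1b8 and Cystm1 (0.94 to 0.95), and for Slc4a4 Ppp1cb, Ahcyl2 and Prnp (0.94 to 0.95). Slc9a3 was most like Snx18, Prcp and Dlg4 (0.94 to 0.95), Slc9a2 Shpk, Magi1 and Myog (0.93 to 0.96) and Slc26a3 Rab3ip, Lpin1 and Sri (0.84 to 0.88). Car4 was most like Pafah1b2, Caprin1 and Gpr89b (0.93 to 0.96), Guca2a Grk6, Trib1 and Cd7 (0.94 to 0.95) and Car8 Klf5, Snx5 and Efr3a (0.90 to 0.92).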

How the data were processed

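Mucosal scrapes of 2 segments of b/b and +/b rats were hybridised to 12 arrays. The authors deposited linear signal intensities of probe sets. Per the submitters' processing notes MAS5 is named on 10 of the arrays. For its version and settings nothing is stated. Of 31099 probe sets, 57 controls were left out. Each array was scaled to a 2% trimmed mean of 500. Multiplying the 2 arrays of lower scale multiplied their noise too.

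Probe sets with a mean of at least 100 (17694) were tested as log2(signal + 16) with limma 3.58.1 (R 4.3.3; lmFit, eBayes with trend) and 4 group means, so changes of dim genes are understated. The p-values are two-sided and Benjamini-Hochberg adjusted over all probe sets. In the fit without a block they rest on the spread between arrays of the same group, with all arrays taken as independent. That fit leaves out the pairing of segments, so its genotype mean of both segments counts both arrays of a rat group as separate replicates. With the rat group as a fixed block, segment changes are set against the spread of the paired segment differences. Changes are log2 with SE, and levels are means ± SD over 3 arrays. The number of arrays limits the precision. Genes were named from the platform's probe-to-gene annotation, and the leading probe set of a gene is the one of highest mean. Named were all members, pathway genes called or among the 3 smallest p of a contrast, and the 3 genes most like each member. The exceptions were Gucy2c, Guca2b and the markers Hbb, Alas2, Slc4a1, Tff2, Pla2g2a, Lyz2, Reg3g, Gcg, Cck, Chga and Gip, chosen after their values were seen. The members and lists were chosen with earlier results of these data known. The fit without a block was tested on simulated data, for the genotype comparison in the duodenum and the mean segment comparison only. The simulated arrays were independent, without paired segments, and the block fits were not simulated.

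The design text has each group of rats supply both segments, so same-numbered arrays of a genotype form a pair. Their deviations from the group means correlated at 0.16 to 0.38 in b/b and 0.19 to 0.28 in +/b rats. Same-numbered arrays of different genotypes correlated as much in places (0.14 to 0.45 for b/b duodenum and +/b jejunum, 0.12 to 0.42 in the jejunum, 0.03 to 0.26 for b/b jejunum and +/b duodenum, -0.06 to 0.16 in the duodenum), so a number may also mark another shared factor. Alternatives covered pseudocounts of 1 and 64, the filter (none, or 200), median centring, quantile normalization, no rescaling, array weights, no trend, arrays left out and the rat group or replicate number as a block.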

Additional observations from a re-analysis of the deposited data

How the results depend on the processing

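Counts below are of the 12 probe sets passing an adjusted p of 0.05. With the rat group as a fixed replicate block, which takes in the pairing of the segments, 7 passed in the mean segment comparison, 7 in b/b and 2 in +/b rats, against 4, 2 and 0 without it. Of all probe sets, 4.49%, 2.44% and 0.486% passed with the fixed block, against 1.4%, 0.763% and 0.0565% without it. As a random block (consensus correlation 0.31) the rat group gave 6, 4 and 0, against 4.02%, 1.98% and 0.311% of all probe sets. The replicate number as a block gave 7, 6 and 1. Array weights gave 6 in b/b rats. No trend, or leaving out both pancreas-marked arrays, gave 1 there. Without both arrays of lower deposited scale, 2 passed in the mean comparison. Without rescaling, the counts were 1 (Car4), 0 and 3 in the mean, b/b and +/b segment comparisons. In +/b rats 8673 of all 17694 probe sets passed in that fit, so 3 of 12 there does not set these genes apart. By genotype in the duodenum 1 passed (Car2 1386922_at), where the median of all probe sets then moved to 1.51. For settings given here without a share, only the range of all probe sets called follows below. Leaving out each array in turn gave 3 to 5 in the mean segment comparison, 0 to 5 in b/b rats and 0 in +/b rats. The 3 other counts stayed at 0 in the alternatives run, and that by genotype in the duodenum in all but no rescaling. The blocks changed no other call.

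Over all 2148 alternative values of single probe sets, 163 changed sign, none of them passing the test with either sign, 23 lost a call and 44 gained one. Among values called neither in the main fit nor in the alternative, 70 shifted by more than a tolerance based on the main fit's SE. The cause was not tested. All probe sets called ranged from 137 to 795 for the mean segment comparison, 33 to 642 in b/b rats, 2 to 8673 in +/b rats (8673 without rescaling), 3 to 366 by genotype in the duodenum and 2 to 8 in the jejunum, against 247, 135, 10, 7 and 6. The limits are 3 arrays a group, no wild-type arrays among those analysed, and the dim second Car4 probe set, with Car8 the dimmest of those tested, which limit what can be told apart.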
